A study of Mus musculus with 30 samples.

Results

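Secondary mouse iPSCs that had been differentiated for 48 h and then returned to serum/LIF for 48 h without dox were compared with cells left in withdrawal for 96 h. Both had been away from 2i/LIF for the same total of 96 h, so the pair was matched on elapsed time. The pair takes 2 of the 15 conditions and 4 of the 30 samples of the RNA-seq series, with 2 replicates in each condition. The question was what medium that supports pluripotency does to cells already 48 h into differentiation, beyond what more time alone brings.

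All cells came from 1 iPSC line with dox-inducible Oct4, Sox2, Klf4 and cMyc transgenes (OSKM), GFP in place of 1 Nanog allele and a constitutive nuclear RFP. Neither condition received dox in these 96 h, and both started from cells kept in serum/LIF on CF1 MEFs and moved to 2i/LIF before withdrawal. The 96 h cells stayed in N2B27, a serum-free medium without LIF or inhibitors. The returned cells were detached at 48 h and re-seeded in serum/LIF. Medium, detachment and re-seeding therefore differ together and cannot be told apart, and the substrate may differ with them. For the colony-forming assay the methods place withdrawal on gelatin and re-seeding in serum/LIF, at very low density, on CF1 MEFs, and they do not say whether the RNA-seq cells were grown or separated in the same way. Values for Pou5f1 (Oct4), Sox2, Klf4 and Myc can include transcripts of the transgenes. Being bulk RNA, the values cannot tell fewer cells of a type from less RNA per cell.

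The deposited table gives 1 FPKM value (fragments per kilobase of transcript, relative to the mapped fragments of the library) per gene and condition, in which the replicates are already combined. No spread, test or p-value can be given, and each difference below is a difference between 2 combined values. A gene was counted as higher or lower when the plain ratio was at least 2-fold and the higher value at least 1 FPKM. Of 22477 genes, 12763 reached 1 FPKM in either condition. Depth can be judged only roughly, because the table has no counts. Values above 0 of long genes with 1 transcript were multiplied by transcript length, and a low percentile of them was taken as the step. By this rough estimate a 2 kb gene at 1 FPKM stood at 30.9 steps in the returned cells and 46.9 in the 96 h cells. Values under 1 FPKM are therefore coarse in both. The values summed to 780060 FPKM after return and to 652188 FPKM at 96 h, and ribosomal protein and mitochondrially encoded genes made up 33.5% and 28.3% of these sums.

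LIF, a cytokine that signals through Jak kinases and Stat3, keeps mouse pluripotent cells in the naive state together with serum or with the inhibitors of 2i, which block the ERK kinase cascade and Gsk3. Without them the cells lose the naive transcription factors, pass through a formative state marked by genes such as Otx2 and Fgf5, and then begin to differentiate. In serum-free N2B27 medium many of them turn toward neurectoderm. Nodal signals, retinoic acid and BMP signals are among the cues that direct these choices.

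The promoter windows of 3 genes are shown because each gene belongs to a pathway described below and its window holds a letter pattern associated with that pathway. Capitals mark the pattern, with 30 bases on either side where the window of 250 bases before the start allowed it. The sequences are from RefSeq on GRCm38.p6, on the plus strand.
Cyp26a1, retinoic acid degradation, chr19:37697746-37697807: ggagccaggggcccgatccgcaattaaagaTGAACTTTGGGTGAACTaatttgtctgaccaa
Icam1, adhesion molecule of the LIF and Stat3 list, chr9:21015868-21015936: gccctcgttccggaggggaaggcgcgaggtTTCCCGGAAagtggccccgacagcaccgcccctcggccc
Hmgcs1, cholesterol synthesis, chr13:119690184-119690252: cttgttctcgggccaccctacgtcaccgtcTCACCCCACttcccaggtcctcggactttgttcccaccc
In Cyp26a1 the capitals are a repeat of AGTTCA or AGGTCA with 5 bases between the copies, which retinoic acid receptors are known to bind, here read on the other strand. It occurs in 0.0407% of the 27025 RefSeq genes with a window. In Icam1 they are TTCCNGGAA, the palindrome that STAT proteins bind, found in 1.09% of these genes. In Hmgcs1 they are TCACNCCAC, the sterol regulatory element, found in 1.22%. Both strands were searched, and none of these windows held either of the other patterns. Of the list members at 1 FPKM or more that had a window, 1 of 11 retinoic acid genes, 1 of 15 LIF and Stat3 genes and 1 of 17 cholesterol genes held the pattern of its own pathway. A match is a string of letters and not a measured site.

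Return to serum/LIF left most genes near the 96 h level. The log2 ratio of returned over 96 h cells had a median of -0.0028, and 71.8% of the 12763 genes lay within 1.5-fold. The median alone does not show how many genes changed. It was also near 0 for return at 24 h against 72 h (-0.0032) and for serum/LIF from 0 h against 48 h (0.032). After return 812 genes were at least 2-fold higher, or 6.36% of those compared, and 831 were at least 2-fold lower, or 6.51%. At 4-fold the counts were 215 and 200. The shares of 6.36% and 6.51% apply to every list count below that compares return with 96 h. In a short list a count of a few genes can lie near them. With both conditions scaled to the same total, which shifts every log2 ratio by 0.258, the split became 501 higher and 1305 lower. The genes listed at 0 in the other condition, 14 among the higher and 18 among the lower, get no fold. Just outside the minimum lay Slc16a4, at 0.9998 FPKM at 96 h and 0.525 FPKM after return, and just inside it Dyx1c1, at 1.001 and 0.534 FPKM.

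**Figure D1:**
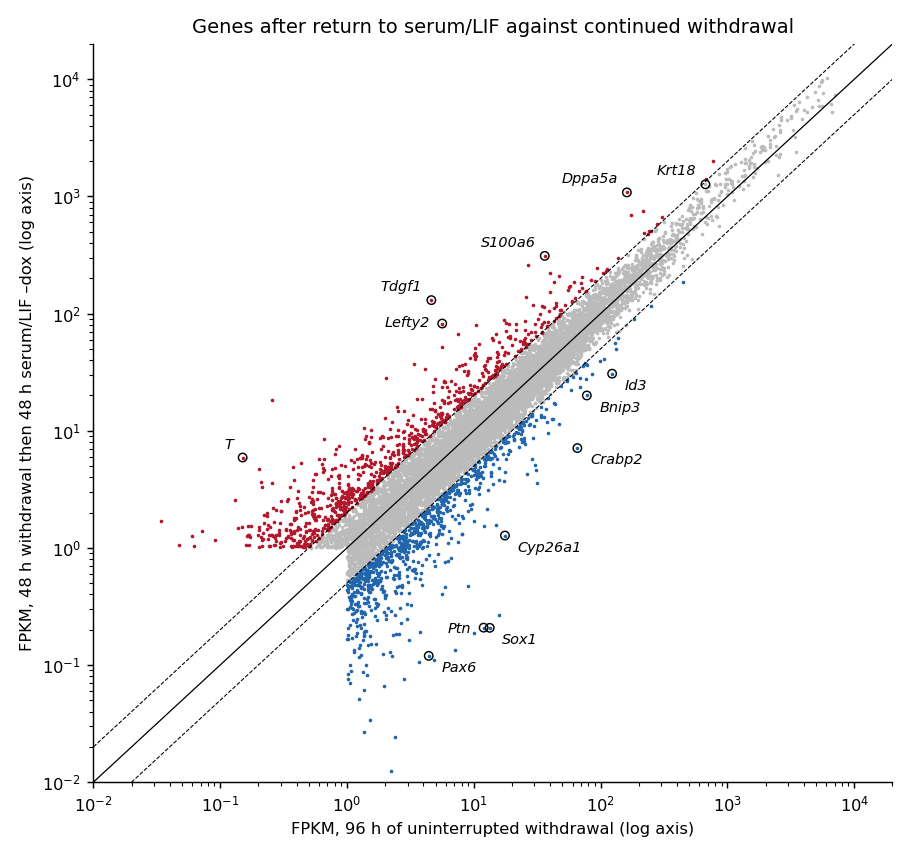
Each point is 1 gene with at least 1 FPKM in either condition, placed by its FPKM at 96 h of withdrawal (x axis) and after 48 h of withdrawal and 48 h in serum/LIF –dox (y axis), both on log axes, with genes at 0 left out. Red points are at least 2-fold higher and blue points at least 2-fold lower after return, beyond the dashed lines. Tdgf1 stands at 130.1 against 4.62 FPKM and Sox1 at 0.207 against 13.3 FPKM.

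Among genes that reached 10 FPKM, the largest ratios in favour of the returned cells included the Nodal coreceptor Tdgf1, the Nodal inhibitor Lefty2 and the pluripotency-associated genes Dppa5a, Dppa2 and Tdh. Tdgf1, on chromosome 9 (110939603 to 110946158) of mm10, was 28.2-fold higher, at 130.1 against 4.62 FPKM. Trh, the precursor of thyrotropin-releasing hormone, stood at 28.2 against 2.05 FPKM, and the ephrin receptor Epha2 at 37.4 against 3.37 FPKM. S100a6, a calcium-binding protein, was at 311 against 36.2 FPKM, and the galectin Lgals3 at 33.7 against 4.12 FPKM. The interferon-inducible Ifitm1, Gbp2 and Gbp5 were 9.74-fold, 8.87-fold and 9.16-fold higher. Ifitm1 had already been at 283 FPKM at 48 h, and was at 260 FPKM after return and 26.7 FPKM at 96 h. Gbp2 and Gbp5 had been at 0.796 and 0.764 FPKM at 48 h and were at 67.1 and 51.5 FPKM after return. Lbhd1, at 79.9 against 10.4 FPKM, and 2 genes with locus names complete the 15.

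In the other direction the largest ratios were those of Sox1, Igfbp5, Ptn and Mt3. Sox1, an early neurectoderm transcription factor on chromosome 8 (12395295 to 12400126), measured 13.3 FPKM at 96 h and 0.207 FPKM after return, a 64.3-fold difference. Igfbp5, which binds insulin-like growth factors, was at 15.9 against 0.267 FPKM, the growth factor Ptn at 11.9 against 0.208 FPKM and the metallothionein Mt3 at 10.1 against 0.187 FPKM. These 4 returned values are under 1 FPKM, so the folds are imprecise. Cxcl12, a chemokine, was 9.40-fold lower after return, the neural adhesion gene Cntnap2 7.81-fold, the ligand Bmp7 6.05-fold and the receptor component Ramp2 5.99-fold. Cyp26a1, Crabp1 and Crabp2 are described with retinoic acid. Greb1l, at 28.9 against 5.72 FPKM, the calcium-binding Hrc, at 17.3 against 3.73 FPKM, and 2 genes with locus names complete these 15.

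By absolute difference the list was led by highly expressed housekeeping genes whose ratios were mostly under 2-fold. Gnb2l1, a scaffold protein on the ribosome, was at 6032 FPKM after return and 3375 FPKM at 96 h, and Tpt1, Atp5b, Ncl, Tmsb10 and Eef1a1 were between 1.14-fold and 1.71-fold higher. Bex1 (2006 against 774 FPKM), Gpx4, which reduces lipid peroxides (1412 against 675 FPKM), and Dppa5a were the members past 2-fold. On the lower side stood the ferritin chain Ftl1, Mt1, Mt2, Hsp90ab1, Ptma, the growth factor Mdk, Hist1h2ao, Yam1 and Ldha, none past 2-fold, and the scavenger receptor Stab1 at 185 against 447 FPKM.

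Naive pluripotency genes were higher after return, but most stayed far below cells that had never been withdrawn. Of 24 listed genes, 22 reached 1 FPKM in either condition, and 16 were at least 2-fold higher after return, 0 were lower and 6 were within 2-fold, where 6.36% of all genes were higher. Their median log2 ratio was 1.27, beside -0.0028 over all genes. Nanog, on chromosome 6 (122707489 to 122714633), stood at 227 FPKM before withdrawal and 6.45 FPKM after 48 h. It was at 14.5 FPKM at 96 h of withdrawal and 32.9 FPKM after return, 2.26-fold apart. Cells left in withdrawal for 72 h had a higher Nanog value than the returned cells, 38.9 FPKM. Nanog therefore also rose and fell again without serum/LIF, and its difference from the 96 h cells depends on the time compared. Klf5, another factor of the naive network, stood at 16.7 FPKM when returned, and at 55.1 FPKM 48 h later against 11.0 FPKM in continued withdrawal. Tfcp2l1, a LIF-responsive factor, stood at 2.82, 7.84 and 1.48 FPKM in the same order, and Dppa5a at 787, 1081 and 161 FPKM. For these the returned value was above both the 48 h and the 96 h value.

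Other naive genes were above the 96 h level after return but below the level at which they had stood at 48 h. Esrrb, an orphan nuclear receptor, was at 8.31 FPKM after return, against 3.07 FPKM at 96 h and 12.8 FPKM in the 48 h starting cells. Zfp42 (Rex1) followed with 18.1, 7.44 and 31.8 FPKM in that order, and Nr0b1 with 2.29, 0.425 and 6.61 FPKM. Fgf4, Dppa2, Dppa4 and Tdh also lay between the 48 h and 96 h levels, for example Tdh at 12.8 FPKM between 62.3 and 1.99 FPKM. Of these 22 genes, 5 were at least 2-fold above the 48 h level after return and 6 at least 2-fold below it, where 16.2% and 9.06% of all 12763 genes were. At 96 h of withdrawal 1 was above and 11 were below, where 16.1% and 8.56% of all genes were. Sox15, Gbx2 and Eras were the 3 members lower after return than at 96 h, all within 2-fold.

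Set against cells placed in serum/LIF for 48 h without any withdrawal, the naive genes stood at a median of 14.9% after return and 4.55% at 96 h. Klf5 reached 40.2%, Nanog 27.4%, Dppa5a 25.3% and Tfcp2l1 24.4% of that level. Esrrb reached 5.49%, Klf4 5.51%, Tbx3 7.45% and Nr0b1 2.89%. Trp53inp1, which is also a p53 target, was the member above 100% in both conditions.

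**Figure D2:**
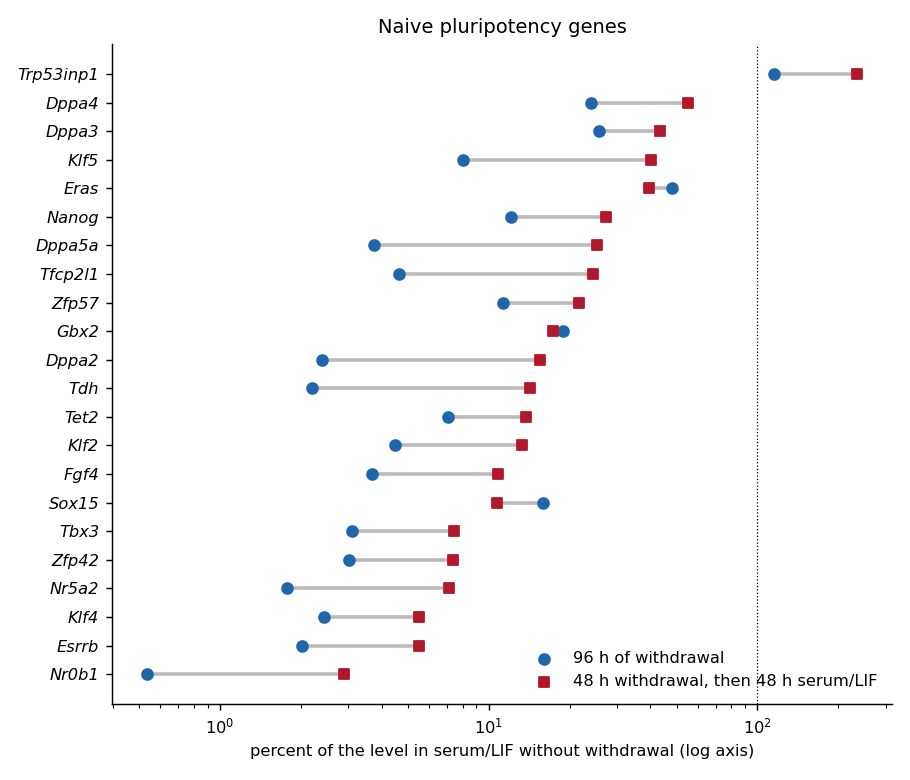
The 22 naive pluripotency genes at 1 FPKM or more in either condition, each as a percentage (log axis) of its FPKM in cells kept 48 h in serum/LIF –dox without withdrawal, for 96 h of withdrawal (blue circles) and for return at 48 h (red squares). Squares lie to the right of circles for 19 of the 22 genes and left of 100% for all but Trp53inp1.

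Genes of the core pluripotency network, which stay on longer in differentiating cells, differed less. Of 12, 5 were at least 2-fold higher after return and 0 lower, with a median log2 ratio of 0.55. Pou5f1 was at 25.5 FPKM at 96 h but 72.6 FPKM after return, from a 48 h level of 205 FPKM. The returned value was 20.2% of that in cells never withdrawn. L1td1, an RNA-binding protein of pluripotent cells, was at 184 against 43.0 FPKM and the factor Foxd3 at 2.07 against 0.303 FPKM. Sox2 (43.4 against 33.0 FPKM), Sall4 (97.1 against 115 FPKM), Lin28a (155 against 188 FPKM) and Utf1 (298 against 254 FPKM) were within 2-fold.

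Formative genes were higher and lower in similar numbers. Of 14 expressed members 3 were higher and 4 lower, and the median log2 ratio was -0.12. Otx2, a factor of the formative state, was at 88.4 FPKM when returned, and at 13.1 FPKM 48 h later against 33.7 FPKM in continued withdrawal, and Lef1, Sall2 and Sfrp2 were the other members at least 2-fold lower. Fgf5 (17.2 against 12.7 FPKM), Pou3f1 (23.9 against 25.9 FPKM) and the DNA methyltransferases Dnmt3a (31.8 against 34.7 FPKM) and Dnmt3b (98.5 against 78.7 FPKM) were within 2-fold, and all 4 were well under their 48 h values of 37.3, 69.6, 292 and 586 FPKM. Dnmt3l, their cofactor, was 3.39-fold higher after return. It is also the 1 member of 12 DNA methylation and demethylation genes past 2-fold among the higher, beside Tet2 at 2.16 against 1.11 FPKM and Tet1 at 9.51 against 8.09 FPKM, both within 2-fold.

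**Figure D3:**
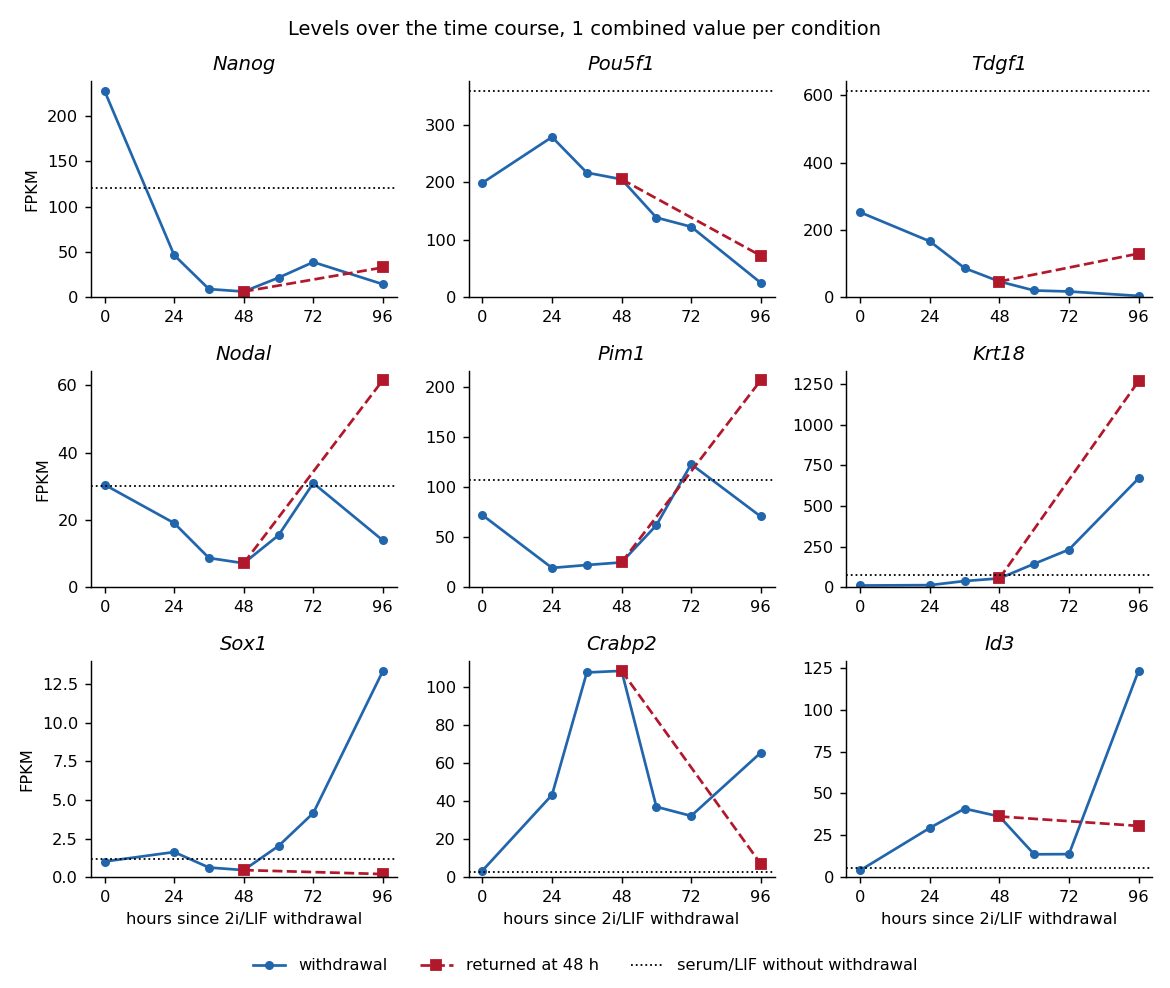
FPKM of 9 genes against hours since 2i/LIF withdrawal, with the withdrawal time course in blue, the cells returned to serum/LIF at 48 h as red squares joined by a dashed line to their 48 h start, and the level in serum/LIF without withdrawal dotted. Each point is 1 combined value of 2 replicates, so no error bars are drawn. At 96 h Nodal stands at 61.5 FPKM after return against 13.9 FPKM, Krt18 at 1268 against 670.3 FPKM and Crabp2 at 7.10 against 65.5 FPKM.

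Genes of the LIF and Stat3 pathway were higher in the returned cells. Of 17 expressed members, among them the naive genes Klf4, Tfcp2l1 and Gbx2, 8 were at least 2-fold higher and 0 lower, with a median log2 ratio of 0.87. Socs3, the feedback inhibitor of the pathway, was at 21.3 FPKM after return and 7.70 FPKM at 96 h, and 73.6 FPKM in serum/LIF without withdrawal. The kinase Pim1 was at 207 against 70.8 FPKM and Pim3 at 95.8 against 46.8 FPKM. Bcl3, a nuclear cofactor of NF-κB, was at 25.1 against 7.12 FPKM, the AP-1 subunit Junb at 64.7 against 19.2 FPKM and Icam1, whose promoter window is printed above, at 10.4 against 3.98 FPKM. Pim1 and Junb were above the level of cells never withdrawn, 107 and 21.3 FPKM. The receptor chains Lifr (1.98 against 1.38 FPKM) and Il6st (11.7 against 10.7 FPKM) and Stat3 itself (19.9 against 11.6 FPKM) were within 2-fold.

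Feedback genes of the FGF and ERK pathway were also higher than at 96 h. Of 15 members 7 were higher and 0 lower, and the median log2 ratio was 0.87. Against the 48 h start, 2 were at least 2-fold above and 2 below after return, and 1 above and 7 below at 96 h. Over all genes these shares were 16.2% and 9.06% after return, and 16.1% and 8.56% at 96 h. The list summed to 419.9 FPKM at 48 h, 369.2 FPKM after return and 234.3 FPKM at 96 h. The phosphatases Dusp4 (32.6 against 8.38 FPKM) and Dusp6 (46.9 against 17.6 FPKM), the inhibitor Spry4 (6.95 against 1.15 FPKM) and the ETS factors Etv4 (10.2 against 2.17 FPKM) and Etv5 (57.2 against 15.9 FPKM) were among them. Dusp5 was at 27.2 against 42.8 FPKM. Of 14 immediate early genes 4 were higher and 1 lower, the higher being Junb, Ier3, Myc and Dusp1, with Myc at 35.9 against 7.70 FPKM.

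Nodal signalling genes were higher after return, with 6 of 9 expressed members past 2-fold, 0 lower and a median log2 ratio of 1.77. Nodal itself, the TGF-β family ligand on chromosome 10 (61417972 to 61425338), was at 61.5 FPKM after return, against 13.9 FPKM at 96 h and 7.16 FPKM in the 48 h starting cells, above the 30.2 FPKM of cells never withdrawn. Nodal also rose and fell again without serum/LIF, reaching 30.9 FPKM at 72 h of withdrawal. The size of its difference therefore depends on the time compared. Lefty2, an inhibitor of Nodal that is also its target, lies on chromosome 1 (180893108 to 180899103) and was at 82.1 against 5.63 FPKM, a log2 ratio of 3.87. Lefty1, its neighbour in function, was at 96.2 against 49.4 FPKM, just under 2-fold. The ligand Gdf3 (26.0 against 5.88 FPKM) and the inhibitory Smad7 (15.3 against 4.49 FPKM) were also higher. The cofactor Foxh1 (31.8 against 32.6 FPKM) and the receptor Acvr2b (9.77 against 15.5 FPKM) were within 2-fold.

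Primitive streak genes, 2 of which (Nodal and Fgf8) were counted above, were mostly higher where they were expressed at all. Only 7 of 19 listed genes reached 1 FPKM in either condition, and 6 of these were at least 2-fold higher after return. Tbx6 was lower, within 2-fold, at 0.670 against 1.13 FPKM. T (Brachyury), on chromosome 17 (8434423 to 8442496), was at 5.90 FPKM after return and 0.15 FPKM at 96 h. Wnt3 was at 3.28 against 0.354 FPKM, Eomes at 2.46 against 0.515 FPKM and the ligand Fgf8 at 8.99 against 4.49 FPKM. T was also above cells kept in serum/LIF without withdrawal, at 0.191 FPKM, and above cells at 0 h, at 2.85 FPKM. Wnt3 and Fgf8 were under 1 FPKM in both. Eomes stood at 2.17 FPKM in serum/LIF without withdrawal and 3.01 FPKM at 0 h, near its returned value. Hand1, at 1.86 against 0.590 FPKM, stood at 3.98 FPKM in serum/LIF without withdrawal and 0.148 FPKM at 0 h. Apart from Nodal no member reached 10 FPKM. The Wnt list as a whole was mixed, with 3 of 13 higher and 2 lower. Sp5, a Wnt target, was at 8.48 against 3.10 FPKM, while Axin2, another, was at 6.75 against 7.96 FPKM and Lef1 at 1.41 against 6.34 FPKM.

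Neurectoderm genes were lower after return. Of 13 expressed members 0 were higher and 7 were at least 2-fold lower, where 6.51% of all genes were lower. The median log2 ratio was -1.02. Pax6, a neural transcription factor, was at 4.41 FPKM at 96 h but 0.12 FPKM after return, from a 48 h level of 0.946 FPKM. Sox21, Hes5, Pax3 and Zfp521 were at 1.33, 1.29, 1.23 and 3.39 FPKM at 96 h and at 0.0877, 0.121, 0.0514 and 0.629 FPKM after return. For Sox1, Pax6, Sox21 and Hes5 the returned value was below the 48 h value as well, but both were under 1 FPKM and therefore coarse. The 48 h values of Sox1, Sox21 and Hes5 were 0.464, 0.244 and 0.663 FPKM. Zic2 was at 23.8 against 48.3 FPKM. Nes, which encodes an intermediate filament of neural progenitors and other cells, was the 1 member higher after return, within 2-fold, at 22.2 against 14.6 FPKM. Of 11 expressed Notch genes 0 were higher and 3 lower, namely the ligand Dll1 (0.989 against 3.90 FPKM), Hes5 and Hes6 (11.1 against 27.0 FPKM).

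Retinoic acid genes were mixed, with more lower than higher. Of 16 expressed members 2 were higher and 7 lower, with a median log2 ratio of -0.13. Cyp26a1, which degrades retinoic acid and is induced by it, had been at 0.121 FPKM at 48 h and was at 17.6 FPKM at 96 h and 1.27 FPKM after return. The binding proteins Crabp1 (3.61 against 31.3 FPKM) and Crabp2 (7.10 against 65.5 FPKM) and the uptake receptor Stra6 (0.246 against 2.02 FPKM) were lower. Rdh10, an enzyme that makes the aldehyde precursor, was 5.51-fold higher, at 27.4 against 4.97 FPKM, and Aldh1a2, which completes synthesis, was at 1.43 against 0.555 FPKM. The receptors Rara (8.73 against 9.45 FPKM) and Rarg (34.8 against 35.8 FPKM) were within 2-fold.

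BMP target genes went different ways, with 3 of 14 higher, 4 lower and a median log2 ratio of -0.30, which became 0.05 when at least 5 FPKM was required. The Id genes, inhibitors of basic helix-loop-helix factors, were not alike. Id3 was 4.02-fold lower after return (30.6 against 123 FPKM), Id2 2.67-fold higher (104 against 39.0 FPKM) and Id1 within 2-fold (51.1 against 80.9 FPKM). Msx1 (0.477 against 3.93 FPKM) and the ligands Bmp2 (0.571 against 1.42 FPKM) and Bmp7 were lower, and the BMP antagonist Nog was higher (4.95 against 1.49 FPKM).

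Many genes that come up late in withdrawal were near the 96 h level or higher after return. Of 16 epithelial junction and keratin genes none passed 2-fold in either direction, but 15 had the higher value after return and the median log2 ratio was 0.53. With both conditions scaled to the same total this median is 0.28. That of the Yap and SRF list then goes from 0.45 to 0.19, and that of the cardiac and smooth muscle list from 0.33 to 0.068. Krt8 and Krt18, keratins of simple epithelia, had been at 16.2 and 55.2 FPKM at 48 h. They were at 272 and 670.3 FPKM at 96 h and 527 and 1268 FPKM after return, against 33.8 and 73.0 FPKM in cells never withdrawn. The contractile genes Acta1 (129.9 against 100.5 FPKM), Acta2 (136 against 97.9 FPKM) and Tagln (131 against 105 FPKM) likewise stayed within 2-fold of the 96 h level and far above the 3.97, 14.2 and 14.9 FPKM of the 48 h cells. In the cardiac and smooth muscle list 0 of 16 genes were higher and 2 lower, Tnnc1 (11.5 against 47.2 FPKM) and Des (9.06 against 19.1 FPKM).

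Of 20 Yap and SRF targets 2 were higher and 1 lower, and 14 were at least 2-fold above the 48 h level after return, against 10 at 96 h. Of all 12763 genes, 16.2% lay that far above it after return and 16.1% at 96 h. Thbs1 was at 12.1 FPKM when returned, and at 85.7 FPKM 48 h later against 49.8 FPKM in continued withdrawal. Basement membrane and integrin genes gave 0 higher and 1 lower of 17, and endoderm genes 0 higher and 4 lower of 11, with Gata4 at 0.931 against 2.35 FPKM. Of 13 trophoblast genes 3 were higher and 0 lower, none of the 3 above 10 FPKM. They were Plet1 (8.93 against 3.93 FPKM) and Eomes and Hand1, which were already counted with the primitive streak genes. Car4, a membrane carbonic anhydrase, was at 639.8 FPKM after return, against 470.4 FPKM at 96 h and 78.4 FPKM in the 48 h starting cells, and the glucose transporter Slc2a3 at 1088, 889.5 and 27.7 FPKM in that order. In the list of solute transport genes that holds them, 3 of 12 were higher and 2 lower.

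The line had been maintained on MEFs, which the colony-forming assay also uses at re-seeding, so the fibroblast and matrix list was examined as a whole. Of 26 listed genes 21 reached 1 FPKM, of which 7 were higher and 3 lower, and the median log2 ratio was 0.42. The list summed to 1988 FPKM at 0 h, 292.4 FPKM in the 48 h starting cells, 181.3 FPKM at 96 h, 347.0 FPKM after return and 374.9 FPKM in serum/LIF without withdrawal. Vim, Fn1 and Timp1 made up most of the sum after return, at 135, 98.3 and 40.1 FPKM. They also did so in serum/LIF without withdrawal, at 91.8, 188 and 67.6 FPKM. Col1a1, Col3a1, Dcn and Postn stood at 1.45, 0.116, 0.0908 and 0.289 FPKM there, so like sums do not mean like fibroblast content. At 0 h the fibrillar collagens Col1a1 and Col3a1 stood at 229 and 201 FPKM. The higher members after return were Vim (135 against 63.3 FPKM) and Fn1 (98.3 against 33.5 FPKM), which pluripotent cells and their derivatives also express, the proteoglycan Bgn (15.9 against 5.38 FPKM), Col5a1 (8.61 against 3.56 FPKM), S100a4 (3.83 against 1.73 FPKM), the crosslinking enzyme Lox (2.57 against 1.17 FPKM) and Twist2 (1.05 against 0.0477 FPKM). The lower members were Col1a2 (4.32 against 13.6 FPKM), Thy1 (1.55 against 3.96 FPKM) and Pdgfrb (0.419 against 1.22 FPKM). Col1a1 (4.97 against 5.64 FPKM), Col3a1 (0.953 against 1.47 FPKM), Dcn (1.36 against 1.76 FPKM), Col5a2 (8.30 against 4.42 FPKM), Timp1 (40.1 against 21.5 FPKM) and Postn (1.12 against 0.642 FPKM) were within 2-fold. In each of the returned and the 96 h cells 1 listed gene stood at 0. The part of fibroblast RNA in the other differences was not tested. Of 11 mesenchymal regulators 3 were higher and 2 lower, with Zeb2 at 1.22 against 6.61 FPKM. Of 6 expressed endothelial and blood genes 2 were higher, including the receptor Flt1 at 8.005 against 1.48 FPKM.

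Interferon-inducible genes and chemokines were higher in the returned cells. Of 18 expressed interferon and antigen presentation genes 8 were higher and 0 lower, with a median log2 ratio of 0.48. The GTPase Gbp2, on chromosome 3 (142620602 to 142638008), measured 7.56 FPKM at 96 h but 67.1 FPKM after return, from a 48 h level of 0.796 FPKM. The transcription factor Irf1 was at 43.3 against 10.4 FPKM, the ubiquitin-like Isg15 at 5.90 against 1.25 FPKM and the immunoproteasome subunit Psmb8 at 5.28 against 0.433 FPKM. Stat2 (4.71 against 7.46 FPKM) and the class I genes B2m (193 against 175 FPKM) and H2-K1 (72.8 against 75.7 FPKM) were within 2-fold. Of 11 chemokine and inflammation genes 8 were higher and 1 lower, with Cxcl10 at 13.6 against 3.30 FPKM, Cxcl16 at 21.8 against 6.41 FPKM and Csf1 at 18.4 against 7.40 FPKM. The lower member was Cxcl12.

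Cholesterol synthesis and uptake genes mostly had lower values in the returned cells. All but 2 of 25 cholesterol genes had the lower value after return, of which 6 were at least 2-fold lower, and the median log2 ratio was -0.80. They included the regulator Insig1 (11.9 against 37.9 FPKM), the enzymes Fdps (49.6 against 132 FPKM), Mvd (8.32 against 20.6 FPKM) and Dhcr7 (8.15 against 25.0 FPKM), and Hmgcs1 (37.0 against 76.9 FPKM). The list had been higher at 48 h, at a median of 57.8 FPKM, and stood at 25.0 FPKM at 96 h, 14.3 FPKM after return and 18.6 FPKM in serum/LIF without withdrawal. Of 13 fatty acid synthesis genes 0 were higher and 2 lower, Scd1 (7.23 against 16.3 FPKM) and Fads2 (16.8 against 43.9 FPKM).

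Of 23 glycolysis and hypoxia genes 0 were higher and 5 lower, with a median log2 ratio of -0.29. Bnip3, a hypoxia-inducible mitophagy receptor, was at 20.0 against 77.8 FPKM and Egln3, an oxygen-sensing hydroxylase, at 3.32 against 11.0 FPKM. Ldha (292 against 522 FPKM) and Slc2a1 (125 against 160.2 FPKM) were within 2-fold. Amino acid response genes had 2 of 17 higher and 0 lower, Asns, the asparagine synthetase, at 479.8 against 235 FPKM and Cth at 139 against 25.8 FPKM. Metallothionein and oxidant response genes had 0 of 15 past 2-fold in either direction. In the caveolae and lipid handling list 4 of 12 were higher and 0 lower, with the lipid droplet protein Plin2 at 159.8 against 55.7 FPKM.

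Cell cycle genes stayed within 2-fold. Of 21 members none passed it in either direction, and the median log2 ratio was -0.07. The mitotic kinase Cdk1 was at 276 against 214 FPKM and the proliferation marker Mki67 at 45.7 against 54.3 FPKM. Of 12 cyclins and inhibitors 1 was higher and 2 lower, and of 15 p53 targets 3 were higher and 1 lower, with Perp at 71.3 against 17.8 FPKM. All 35 ribosomal protein genes had the higher value after return, none by 2-fold, with a median log2 ratio of 0.44, which is 0.18 with both conditions scaled to the same total. Of 16 Polycomb genes 3 were lower and 1 higher, the subunit Cbx7 at 48.1 against 22.4 FPKM. Of 13 germline genes 3 were higher and of 21 imprinted genes 4 were higher and 1 lower, with the growth regulator Grb10 at 19.2 against 6.27 FPKM and Mest at 30.6 against 85.3 FPKM. Over all genes 6.36% were higher and 6.51% lower.

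**Figure D4:**
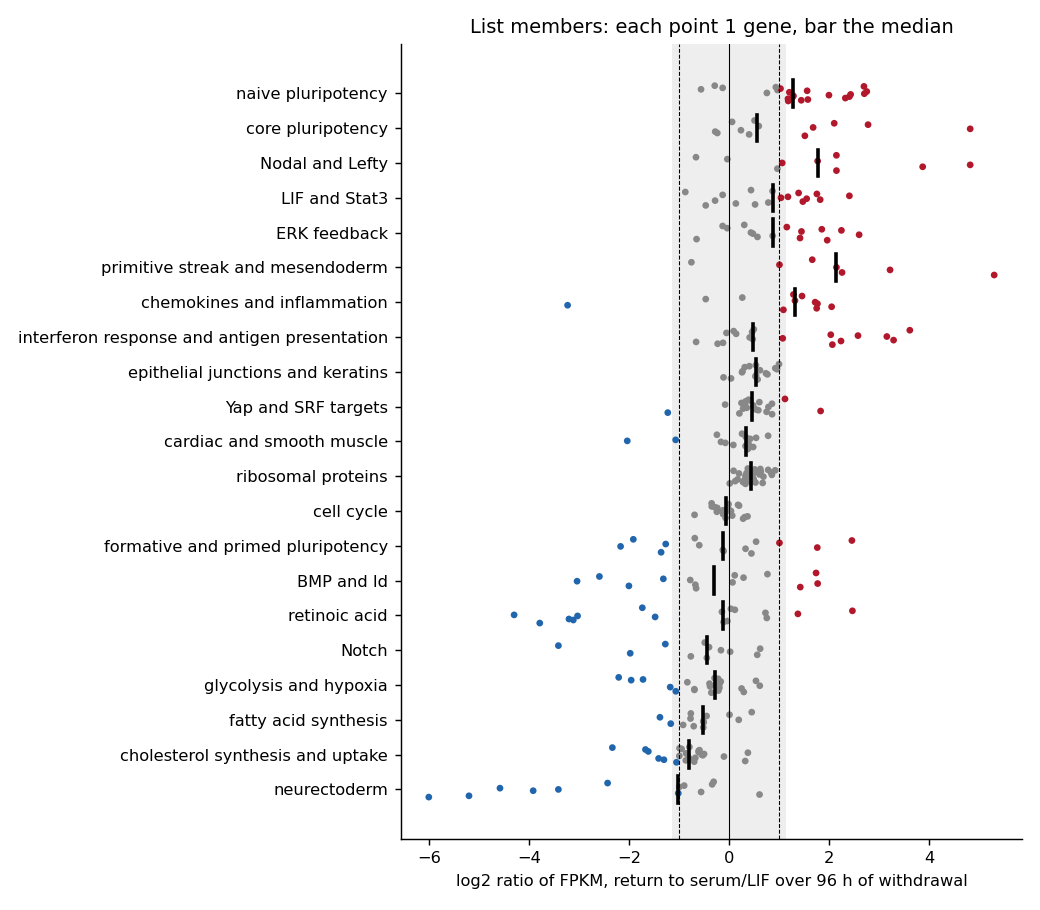
Log2 ratio of FPKM after return over 96 h of withdrawal for the members of 21 gene lists with at least 1 FPKM in either condition, with genes at 0 left out. Each point is 1 gene, red or blue where the difference is at least 2-fold, black bars are list medians and the shaded band spans the 5th to 95th percentile of all genes, -1.14 to 1.13. The naive list centres on 1.27 and the neurectoderm list on -1.02.

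The same contrast was available for cells returned earlier, at 24 h against 72 h of withdrawal and at 0 h against 48 h. These pairs share no condition with the 48 h pair. By the depth estimate given above, their serum/LIF values stood at 92.3 steps for return at 24 h and 99.7 for serum/LIF from 0 h, and the withdrawal values beside them at 32.0 and 31.6 steps. For return at 24 h, 691 of 12785 genes were higher (5.4%) and 625 lower (4.89%). For serum/LIF from 0 h, 2290 of 13043 were higher (17.6%) and 1578 lower (12.1%). Among the 12269 genes compared in both the 48 h and the 24 h pair, 254 were higher in both, which is 36.8% of the 691 higher in the 48 h pair and 47.2% of the 538 higher in the 24 h pair. The genes lower in both numbered 199, 29.97% of 664 and 36.3% of 549, and 19 and 25 lay past 2-fold in opposite directions. Of the 12065 genes compared in both the 48 h and the 0 h pair, 663 and 1732 were higher and 617 and 1407 lower. These pairs shared 275 higher genes, 41.5% of the 663 and 15.9% of the 1732. They shared 182 lower genes, 29.5% of the 617 and 12.9% of the 1407. Opposite ways went 97 genes higher in the 48 h pair, 14.6% of the 663, and 147 lower in it, 23.8% of the 617. These shares stand beside 5.4% higher and 4.89% lower over all genes of the 24 h pair, and 17.6% and 12.1% of the 0 h pair. The 14.6% therefore lies near the 12.1% lower over all genes.

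The naive list had a median log2 ratio of 2.99 for serum/LIF from 0 h, 1.77 for return at 24 h and 1.27 at 48 h, with 19 of 24, 15 of 24 and 16 of 22 members at least 2-fold higher. Over all genes the shares were 17.6%, 5.4% and 6.36%. Esrrb had log2 ratios of 3.56, 1.82 and 1.44, and Nanog of 4.22, 0.37 and 1.18, in that order. The cholesterol list was lower in each, with medians of -1.66, -0.91 and -0.80. The ERK feedback list stood at 0.12 and 0.01 in the earlier pairs and 0.87 at 48 h, the chemokine list at -2.62, -0.38 and 1.31, and the BMP list at 2.13, 1.08 and -0.30. Id3 had log2 ratios of 1.82 for return at 24 h and -2.01 at 48 h. In FPKM it was at 48.9 after return at 24 h and 13.8 at 72 h of withdrawal. The keratin and junction list had medians of 0.04, -0.14 and 0.53, and the Yap and SRF list of -0.89, -0.21 and 0.45. None of these differences between pairs could be tested.

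**Figure D5:**
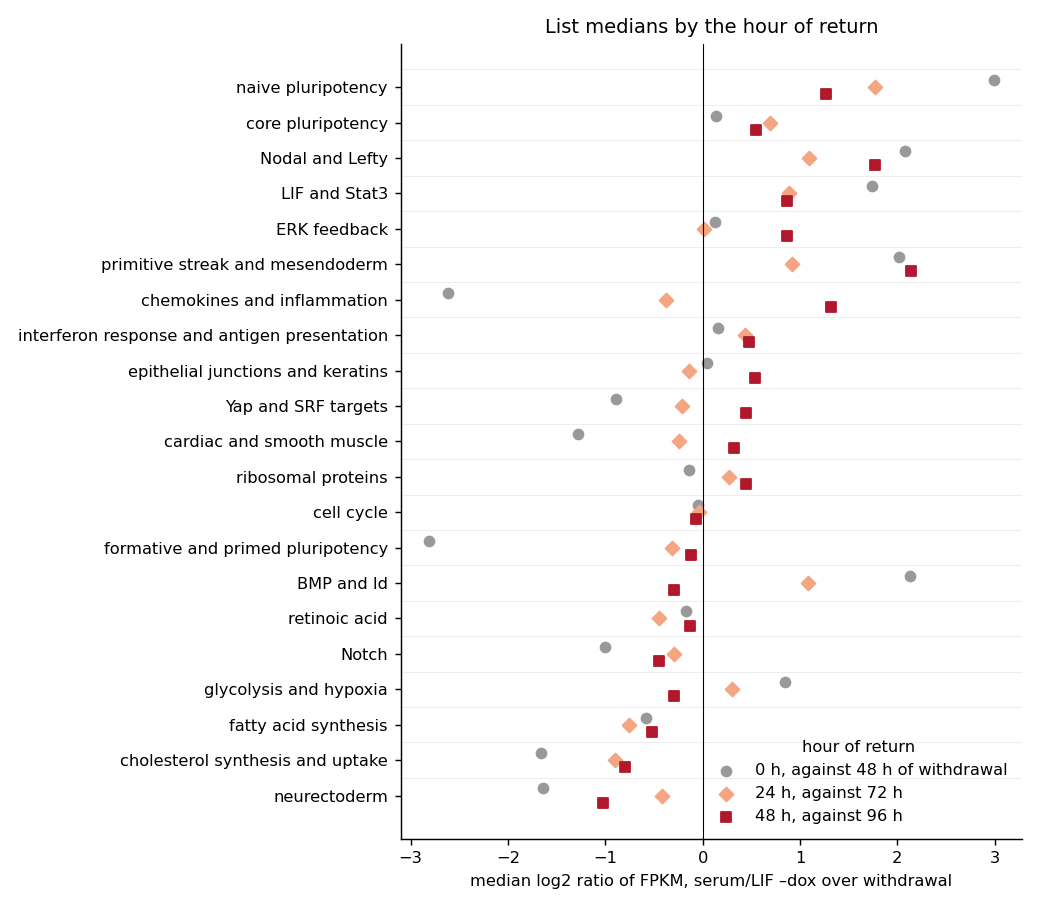
Median log2 ratio of FPKM of serum/LIF –dox over withdrawal for 21 gene lists, for cells moved to serum/LIF at 0 h (grey circles), 24 h (orange diamonds) and 48 h (red squares), each against the withdrawal timepoint of equal elapsed time. The naive list goes from 2.99 to 1.77 to 1.27, and the chemokine list from -2.62 to -0.38 to 1.31. Each list holds the members at 1 FPKM or more in that pair.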

How the data were processed

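RNA-seq of polyadenylated RNA was used from 2 conditions of mouse secondary iPSCs, with other conditions beside them. Groups were taken from the sample titles. According to the methods, the authors aligned the reads with TopHat 2.0.14 (genome build mm10). Gencode transcripts were quantified with Cuffquant and Cuffdiff of Cufflinks 2.2.1, which combined the 2 replicates of a condition. The deposited values are FPKM per gene and condition; the table is named RPKM. How Cuffdiff scaled the libraries is not given in the sources used here, and the total moves the balance of higher and lower genes. The 5 deposited columns of the authors' own calls, which place genes in dynamic and dox-response groups, were not used.

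Ratios were computed with Python 3.11.15, numpy 2.4.6 and pandas 2.3.3 and plotted with matplotlib 3.10.9, without a pseudocount. The counting was tested on simulated data. The table holds no replicate values, so no test was run. The study describes its replicates as biological, without saying more about those of the RNA-seq. Named genes are the 15 largest ratios in each direction among genes at 10 FPKM or more in the higher and above 0.1 FPKM in the lower condition, the 10 largest differences without ribosomal protein and mitochondrial genes, and members of 40 lists of marker and pathway genes. The members and lists were chosen with earlier results of these data known. Positions are from Gencode M21, which holds 94.9% of the gene symbols. Of the gene names, 27 had been turned into dates and are not named. Promoter windows not of full length and those on 1 chromosome were left out. Alternatives were tried for scaling, minimum, pseudocount and fold. Some members that entered the counts are not reported here by name.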

Additional observations from a re-analysis of the deposited data

Results flagged for a closer look

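Id3 and Cxcl10 differed by more than 2-fold in opposite directions between the return at 24 h and the return at 48 h. Id3 had a log2 ratio of 1.82 in the 24 h pair and of -2.01 in the 48 h pair. Cxcl10 had a log2 ratio of -1.83 in the 24 h pair and of 2.05 in the 48 h pair. With 1 combined value per condition, neither difference between the pairs was tested.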

How the results depend on the processing

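The counts of 812 higher and 831 lower genes kept within 1.5 times under median-of-ratios scaling and with 0.1 FPKM added. They became 501 and 1305 with equal totals, 2448 and 3208 without a minimum, 405 and 290 with at least 5 FPKM in either condition, 500 and 423 with at least 1 FPKM in both, 466 and 365 with 1 FPKM added, 1776 and 1820 at 1.5-fold, and 215 and 200 at 4-fold. In alternatives chosen after seeing the data, the 24 h pair gave 306 higher and 266 lower genes with at least 5 FPKM and 383 and 288 with 1 FPKM added, and the 0 h pair 1328 and 951 with at least 5 FPKM. List medians were called unmoved within 0.25 on the log2 scale, which median-of-ratios scaling kept for all 40. Adding 1 FPKM moved the streak median to 1.19 and the chemokine median to 0.91. With at least 5 FPKM the median was -0.56 for neurectoderm, 0.90 for fibroblast and matrix, 1.09 for mesenchymal regulators, 0.063 for germline, 2.44 for endothelial and blood genes, and 0.050 for BMP and Id, which turned its sign. With equal totals the medians of 3 lists, among them Wnt and DNA methylation, turn below 0. Of 580 named genes with values above 0, 41 were no longer past 2-fold with 1 FPKM added, and 24 with equal totals, where 22 others passed it. Another 49, all within 2-fold as reported, turned direction with equal totals. No paired analysis was possible because the table holds 1 combined value per condition, and leaving out a replicate could not be run for the same reason. The depth limits values under 1 FPKM most.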
